A study of Mus musculus with 8 samples.

Results

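The 9 genes described here encode transcription factors of monocytes, macrophages and related dendritic cells: Spi1, Irf8, Klf4, Klf2, Irf5, Irf4, Maf, Batf3 and Nr1h3. They were taken by name, and every probe set (a group of array probes read as 1 value) annotated to only one gene, that gene being one of the 9, was kept. This gave 18 of 45101 probe sets and 9 of 18193 genes on the array. Maf had 6 probe sets, Irf8, Irf5, Irf4 and Klf4 had 2 each, and the other four genes had 1 each. Of the 18, 13 reached log2 5 on at least 2 of the 8 arrays and were tested, and they covered 8 of the 9 genes. Nr1h3 stayed under that level, taken here as background, on all 8 arrays.

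The samples were CD11b+ Gr-1+ cells, a sort that takes granulocytes and monocytes, from the bone marrow or colon tumors of C57BL/6J mice. All mice carried the reporter named HDC-EGFP in the labels. The wild-type groups had this genotype alone, and the HDC-KO groups were labelled HDC-EGFP/HDC-KO, a knockout of Hdc, the gene of the histamine-making enzyme histidine decarboxylase. For bone marrow, described as HDC-expressing cells, 3 mice of each genotype were used at 3 to 4 months of age. For tumor, 5 mice of each genotype were used at 7 months. These had been given the carcinogen azoxymethane by injection, then 10 days of oral dextran sodium sulfate, an agent that damages the colon, and tumors were taken 22 to 24 weeks later. For the tumor cells the labels name no gate on the reporter. Each of the 4 groups was 1 RNA pool on 2 technical arrays. Pooling is stated for tumor and not for bone marrow. An adjusted p below thus sets a difference of pools against technical error alone, with no measure of how mice vary, and tissue cannot be told apart from age, carcinogen treatment or the reporter gate.

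Spi1 encodes PU.1, an ETS-family factor that opens myeloid enhancers, and its level helps set the choice between granulocyte and macrophage fates. Irf8 encodes a partner of PU.1 that favours monocytes and dendritic cells over neutrophils. Klf4 acts in monocyte differentiation, Klf2 restrains inflammatory activation of myeloid cells, Irf5 drives inflammatory cytokine genes, and Irf4 acts in alternative macrophage activation and in dendritic cells and plasma cells. Maf encodes c-Maf, a factor of resident macrophages that activates Il10. Batf3 is needed for cross-presenting dendritic cells, and Nr1h3 encodes LXR-alpha, a receptor for oxidised sterols that activates cholesterol export genes. Several of these factors also act in other cells that a tumor digest can hold, such as B cells (Spi1, Irf8, Irf4), T cells (Klf2, Maf, Irf4) and colon epithelium (Klf4).

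The promoter windows of 4 members are shown because Irf8 and Irf5 differed by genotype label more in tumor than in bone marrow, and Irf4 and Batf3 passed the background level in 1 pool only (below). Of the 9 members 7 had a window in the RefSeq table of GRCm38.p6, and Maf and Spi1 were not listed there. Each line gives the 250 bases before the start site, 5′ to 3′ on the gene's own strand, with motif matches in capitals. Irf8 is at chr8:120736108-120736357, Irf5 at chr6:29526375-29526624, Irf4 at chr13:30748983-30749232 and Batf3 at chr1:191098164-191098413, all on the plus strand.
Irf8: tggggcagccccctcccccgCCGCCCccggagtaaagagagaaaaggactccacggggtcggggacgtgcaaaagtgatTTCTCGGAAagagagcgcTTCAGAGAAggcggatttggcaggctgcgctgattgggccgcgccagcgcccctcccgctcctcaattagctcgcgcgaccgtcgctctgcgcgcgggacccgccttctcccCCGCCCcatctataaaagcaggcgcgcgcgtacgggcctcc
Irf5: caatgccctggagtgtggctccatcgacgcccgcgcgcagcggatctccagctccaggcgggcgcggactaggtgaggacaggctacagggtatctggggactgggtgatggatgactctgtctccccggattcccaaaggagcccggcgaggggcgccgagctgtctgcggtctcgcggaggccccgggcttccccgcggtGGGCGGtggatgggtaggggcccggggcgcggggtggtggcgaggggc
Irf4: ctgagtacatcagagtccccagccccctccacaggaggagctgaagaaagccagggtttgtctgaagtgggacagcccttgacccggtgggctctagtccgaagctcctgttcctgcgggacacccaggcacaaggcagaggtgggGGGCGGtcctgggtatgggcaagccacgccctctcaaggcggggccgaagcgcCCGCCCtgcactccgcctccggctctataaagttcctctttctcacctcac
Batf3: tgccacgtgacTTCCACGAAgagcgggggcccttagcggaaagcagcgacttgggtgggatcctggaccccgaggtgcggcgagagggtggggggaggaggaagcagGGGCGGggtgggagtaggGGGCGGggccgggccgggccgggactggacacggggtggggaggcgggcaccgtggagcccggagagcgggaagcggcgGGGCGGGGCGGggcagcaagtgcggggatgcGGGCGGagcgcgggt

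The motifs searched on both strands were the STAT site (TTCNNNGAA), the GC box of SP and KLF factors (GGGCGG), the PU.1 site (GAGGAAGT), the ETS-IRF composite, the interferon-stimulated response element and the AP-1 site (TGANTCA). The Irf8 window held 2 STAT matches, starting 171 and 153 bases before the start site, and the Batf3 window held 1, starting 239 bases before it. Of 32817 promoter windows of this length 7.02% held a STAT match. GC boxes lay in all 4 windows, 5 of them in that of Batf3, where a pair shared 1 base, and in 32.7% of all windows. No window of the 7 members held the other four motifs, which were present in 2.44%, 2.30%, 2.97% and 6.75% of all windows in the order listed. A match is a run of letters and was not tested as a binding site.

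Some values of the whole series bear on all results. Technical pairs correlated at 0.995 to 0.998 across probe sets, and 30.3% to 31.8% of all probe sets lay at or above log2 5. Hdc was 13.18 ± 0.05 in wild-type and 9.83 ± 0.06 in HDC-KO bone marrow (mean log2 value ± SD, n = 2 technical arrays, as for all means below). The tumor values were 13.24 ± 0.01 for wild-type and 13.03 ± 0.01 for the pool labelled HDC-KO, so the target gene did not bear out that label, and directions drawn from that pool rest on the label alone. Itgam, which encodes CD11b, lay between 11.25 and 12.38 in the 4 pools. Ly6g, Ly6c1 and Ly6c2, the genes behind Gr-1, had no probe set of their own. All 10 neutrophil markers lay above log2 5 in 3 pools, and 9 of 10 did in the pool labelled HDC-KO tumor.

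Irf8, Klf4, Klf2 and Maf followed 1 order across the 4 pools. Wild-type bone marrow was lowest, HDC-KO bone marrow next, then wild-type tumor, and the pool labelled HDC-KO tumor highest, by the lead probe set (the one with the highest mean over the 8 arrays). The arrays of the bone marrow pools overlapped for Maf. For Irf5 they overlapped too, with the same order of the tumor pools above them. Spi1 was highest in wild-type tumor. Irf4 and Batf3 reached log2 5 only in the pool labelled HDC-KO tumor, so the other three pools have no order for them, and Nr1h3 has none in any pool. In a bulk pool, fewer cells of a type and less RNA per cell cannot be told apart.

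**Figure D1:**
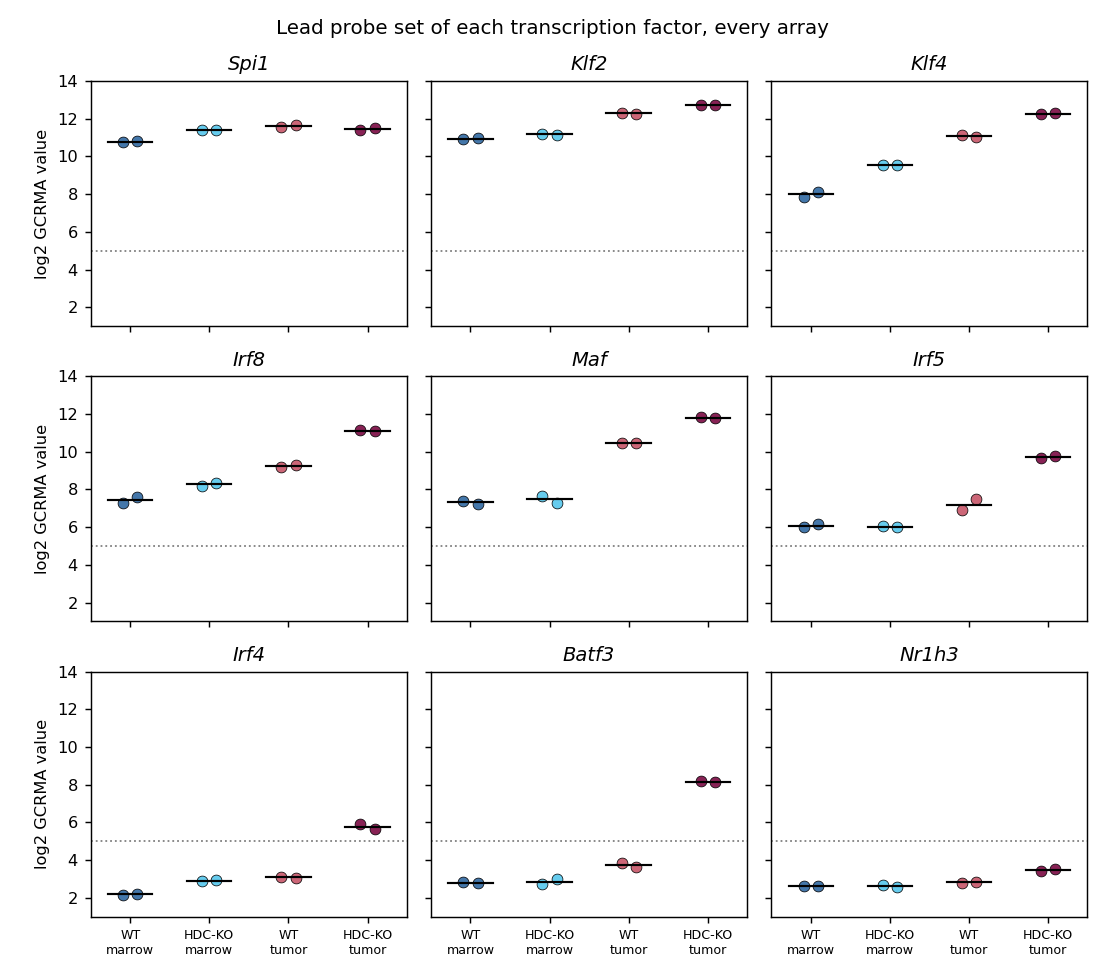
Log2 GCRMA value of the lead probe set of each factor (vertical axis) on every array of the 4 pools (horizontal axis), with a black line at the mean of 2 technical arrays and a dotted line at log2 5. The pool labelled HDC-KO tumor is the highest for Irf8, Klf4, Klf2, Irf5 and Maf, Irf4 and Batf3 pass the dotted line only there, and Nr1h3 stays under it.

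Between the bone marrow pools Klf4 was the 1 factor that passed the test. Of 8 tested members 1 was called higher and none lower in the HDC-KO pool, where 1.8% of the 8173 genes tested were called higher and 2.02% lower, 3.82% in all. Of tested probe sets 1.7% were called higher and 2.44% lower, 4.14% in all. A call needed a Benjamini-Hochberg adjusted p under 0.05 over all tested probe sets and a difference of at least 2-fold. At an adjusted p under 0.05 alone, without the fold, Irf8, Spi1 and Klf2 would also have counted, and Irf4 with both pools under log2 5. The shares given above need the fold too. They do not apply to this looser cut, for which no share of all genes was counted. The median log2 difference of the 8 members was 0.42, or 0.19 with pool means under log2 5 raised to 5, and that of all tested genes was 0.00 on the raised scale. Without the pool labelled HDC-KO tumor in the fit, 2 member probe sets were called in bone marrow, as in the full fit.

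Between the tumor pools Irf5, Irf8, Maf and Klf4 were called higher in the pool labelled HDC-KO, 4 of the 6 members that reached log2 5 on at least 2 arrays outside that pool. Klf2 and Spi1 were not called, and none was lower. Batf3 and Irf4 were called too, but they entered the test only through the arrays of the pool where they were high, so their calls are no support. Over all tested genes 15.5% were called higher and 10.5% lower, 26% in all. The median of the 6 was 1.27, against 0.03 for all genes. Of their 9 probe sets measured outside that pool 7 were called higher, against 13.2% higher and 10.9% lower of all probe sets, 24.1% in all. With Batf3, Irf4 and 2 Maf probe sets that passed only through that pool the count was 11 of 13, and it was 7 with array 1 or array 2 of that pool left out, when these 4 were not tested.

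Between tissues the members were higher in tumor. In the wild-type pools 5 of the 6 members measured outside the pool labelled HDC-KO tumor were called higher in tumor (Irf8, Klf4, Klf2, Maf and Irf5), where 11.6% of all tested genes were called higher and 4.81% lower, 16.4% in all. By probe set, 8 of 9 were called, against 9.93% higher and 6.76% lower of all, 16.7% together. In the HDC-KO pools the same 5 of 6 were called higher, all but Spi1, where 21.1% of all tested genes were called higher and 15.4% lower, 36.5% in all. By probe set, 8 of 9 were called, against 18.2% higher and 18.2% lower of all, 36.4% together. The median differences of the 6 were 1.57 and 2.80, against -0.03 and -0.02 for all genes. No member was called lower in any comparison. The tissue and genotype comparisons share pools, so they are not independent of each other.

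**Figure D2:**
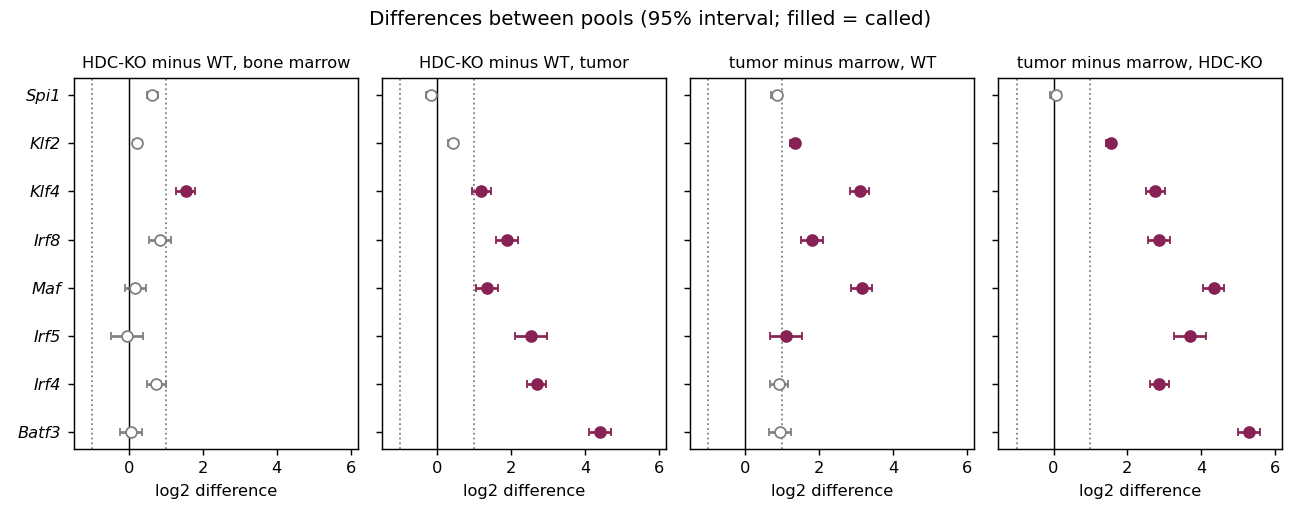
Log2 difference between pools (horizontal axis) for the lead probe sets of the 8 tested factors, with limma's 95% interval from technical arrays, in 4 comparisons. Filled points were called, and dotted lines mark a 2-fold difference. Klf4 is the filled point in bone marrow, and 6 points are filled between the tumor pools, of which Batf3 and Irf4 are differences from pools under log2 5.

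Spi1, the PU.1 gene, was measured by 1 probe set and differed by under 2-fold in each comparison. Its log2 values were 10.75 and 10.81 in wild-type bone marrow, 11.42 and 11.39 in HDC-KO bone marrow, 11.58 and 11.67 in wild-type tumor, and 11.42 and 11.50 in the pool labelled HDC-KO tumor. The wild-type bone marrow arrays lay below all others, and HDC-KO bone marrow and the pool labelled HDC-KO tumor overlapped. Spi1 was higher in HDC-KO than in wild-type bone marrow by 0.63 ± 0.06 (log2 difference ± SE, limma adjusted p = 0.0013), which was 1.55-fold and under the 2-fold threshold. In tumor the difference was -0.16 ± 0.06 (adjusted p = 0.057), with a 95% interval of -0.32 to -0.01. The largest difference was that of wild-type tumor over wild-type marrow, 0.84 ± 0.06 or 1.80-fold (adjusted p = 9.5e-05).

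Irf8, the partner of PU.1, had its lead probe set at 7.27 and 7.61 in wild-type bone marrow, 8.20 and 8.37 in HDC-KO bone marrow, 9.20 and 9.29 in wild-type tumor, and 11.13 and 11.12 in the pool labelled HDC-KO tumor. No arrays of different pools overlapped, so each step of the order was larger than the spread between technical arrays. The other Irf8 probe set gave the same order, from 5.47 and 5.79 in wild-type bone marrow to 9.75 and 9.43 in the pool labelled HDC-KO tumor. Between the tumor pools Irf8 was higher by 1.88 ± 0.12, or 3.68-fold, by the lead probe set (adjusted p = 3.1e-05), and by 2.38 ± 0.15 by the other. In bone marrow the differences were 0.84 ± 0.12 and 0.67 ± 0.15, both under the threshold. The lead probe set passed it at 1.01 when array 2 of wild-type bone marrow was left out. From marrow to tumor Irf8 rose 3.49-fold in the wild-type pools and 7.18-fold in the HDC-KO pools. The promoter printed above that starts chr8:120736108 is the first of 2 Irf8 windows in the table, and the arrays do not tell which start site was used.

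Klf4, the factor of monocyte differentiation, changed in all 4 comparisons. Its lead probe set read 7.83 and 8.14 in wild-type bone marrow, 9.52 on both HDC-KO bone marrow arrays, 11.15 and 11.02 in wild-type tumor, and 12.26 and 12.29 in the pool labelled HDC-KO tumor. The 4 pools did not overlap. In bone marrow Klf4 rose by 1.54 ± 0.11 with HDC-KO, which was 2.90-fold (adjusted p = 3e-04), and by 1.17 ± 0.09 on the other probe set. In tumor it was 2.29-fold higher in the pool labelled HDC-KO by the lead, and the other probe set gave a log2 difference of 1.35 ± 0.09. The tissue difference was larger, 8.58-fold in the wild-type pools and 6.75-fold in the HDC-KO pools.

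Klf2, the relative of Klf4, differed between tissues and little between genotypes. It read 10.94 and 10.97 in wild-type bone marrow, 11.18 and 11.16 in HDC-KO bone marrow, 12.31 and 12.27 in wild-type tumor, and 12.71 on both arrays of the pool labelled HDC-KO tumor. The pools did not overlap, yet the genotype differences were 0.22 ± 0.05 in bone marrow and 0.43 ± 0.05 in tumor, 1.16-fold and 1.34-fold. From marrow to tumor Klf2 rose 2.53-fold in the wild-type pools (adjusted p = 5.6e-06) and 2.92-fold in the HDC-KO pools (adjusted p = 9.2e-07).

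Irf5, the factor of inflammatory cytokine genes, was level between the bone marrow pools and higher in tumor. Its lead probe set read 6.02 and 6.15 in wild-type bone marrow, 6.05 and 5.99 in HDC-KO bone marrow, 6.89 and 7.48 in wild-type tumor, and 9.68 and 9.75 in the pool labelled HDC-KO tumor. The bone marrow arrays overlapped, with a difference of -0.06 ± 0.18 and a 95% interval of -0.50 to 0.37. Between the tumor pools Irf5 was higher by 2.53 ± 0.18, or 5.78-fold (adjusted p = 4.4e-05). The tumor rise in wild-type pools was 2.14-fold and rested on array 2 of wild-type tumor, without which the log2 difference was 0.81 and not called. The rise in the HDC-KO pools was 12.9-fold. The other Irf5 probe set lay between 2.67 and 2.93 on all arrays and gave no measure of it.

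Irf4, the factor of alternative activation, lay under log2 5 in 3 pools. Its lead probe set read 2.14 and 2.22 in wild-type bone marrow, 2.88 and 2.96 in HDC-KO bone marrow, 3.11 and 3.08 in wild-type tumor, and 5.94 and 5.64 in the pool labelled HDC-KO tumor. Only the last pool reached the level taken as measured. Against log2 5, Irf4 there was at least 1.72-fold higher than in wild-type tumor. With values under log2 5 raised to 5 the log2 difference was 0.79 and not called. The other Irf4 probe set stayed between 2.58 and 2.78.

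Maf, the macrophage factor, had the most probe sets. The lead one read 7.37 and 7.25 in wild-type bone marrow, 7.66 and 7.30 in HDC-KO bone marrow, 10.44 and 10.47 in wild-type tumor, and 11.85 and 11.77 in the pool labelled HDC-KO tumor. The bone marrow arrays overlapped, with a difference of 0.17 ± 0.12 and a 95% interval of -0.12 to 0.46, and the tumor pools lay apart from marrow and from each other. Maf rose 8.86-fold from marrow to tumor in the wild-type pools and 20.2-fold in the HDC-KO pools. The Maf level was 2.56-fold higher in the tumor pool labelled HDC-KO than in wild-type tumor (adjusted p = 1.2e-04). Of the other 5 probe sets, 3 were tested. The first, with a tumor difference of 1.96 ± 0.12, read 6.34 and 6.28 in wild-type tumor and 8.16 and 8.38 in the other tumor pool. The other 2 were under log2 5 in wild-type tumor, and against log2 5 they were at least 1.80-fold and 1.12-fold higher in the pool labelled HDC-KO. A further one passed log2 5 on 1 array, at 5.05, and the last lay between 2.50 and 2.84 throughout.

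Batf3, the factor of cross-presenting dendritic cells, was above background in 1 pool. It read 2.82 and 2.81 in wild-type bone marrow, 2.71 and 3.01 in HDC-KO bone marrow, 3.87 and 3.61 in wild-type tumor, and 8.18 and 8.14 in the pool labelled HDC-KO tumor. The first 3 pools were under log2 5 and the last was far above it. Against log2 5, Batf3 was at least 8.96-fold higher there than in wild-type tumor. It passed the filter only through the arrays of this pool, so no p is given. Nr1h3, the LXR-alpha gene, read 2.65 and 2.66 in wild-type bone marrow, 2.69 and 2.60 in HDC-KO bone marrow, 2.81 and 2.86 in wild-type tumor, and 3.44 and 3.53 in the pool labelled HDC-KO tumor. All 8 values were under log2 5, so Nr1h3 was neither tested nor given a fold, and its level was not detectable with this probe set.

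**Figure D3:**
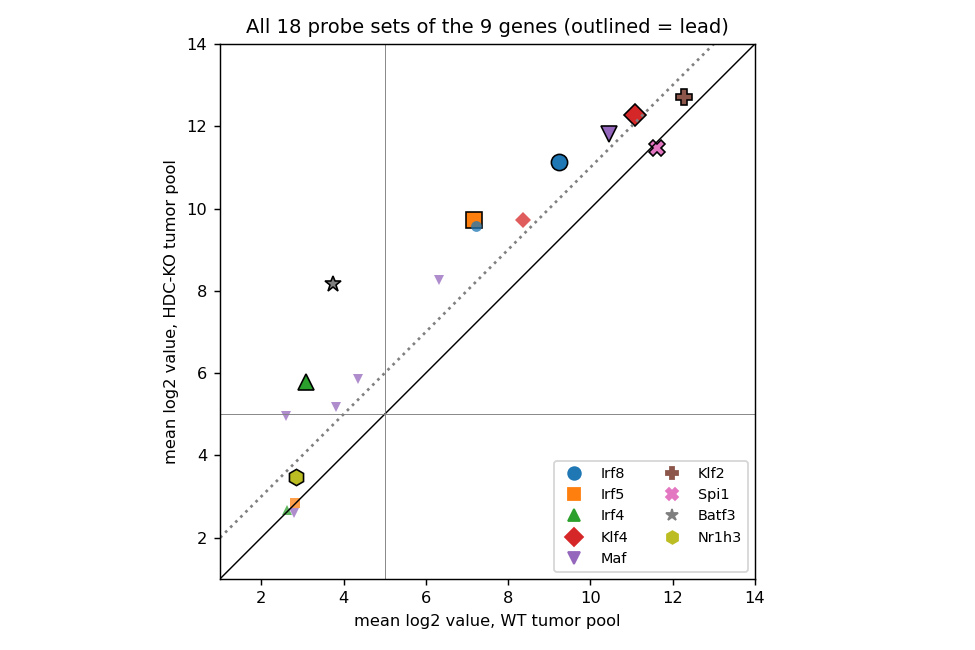
Mean log2 value of each of the 18 probe sets in the wild-type tumor pool (horizontal axis) and in the pool labelled HDC-KO tumor (vertical axis), with a symbol for each gene and the lead probe sets outlined. The solid line marks equal values, the dotted line a 2-fold higher value and the thin lines log2 5. Both Irf8, both Klf4 and several Maf probe sets lie above the dotted line, while Spi1 and Klf2 lie under it.

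The difference of the genotype effects, tumor minus bone marrow, was tested directly. It was called for Irf5, Maf and Irf8, 3 of the 6 members measured outside the pool labelled HDC-KO tumor, all higher, where 16.8% of tested genes were called higher and 11.7% lower, 28.5% in all. By probe set, 5 of 9 were called, against 15.1% higher and 12.3% lower of all, 27.4% together. For Irf5 it was 2.59 ± 0.25 (adjusted p = 2.6e-04), for Maf 1.19 ± 0.17 and for Irf8 1.04 ± 0.17 (log2 ± SE). Batf3 and Irf4, with their other three pools under log2 5, gave 3.16 and 0.79 with means raised to 5, and the Irf4 value was then not called. With values raised, 6 of 13 member probe sets were called in place of 9, and 3622 of all 15686 tested probe sets in place of 4302. The 6 include Batf3, which entered the test only through the pool labelled HDC-KO tumor, so its call is no support. The Irf8 value missed the threshold at 0.87, 0.96 and 0.99 without array 2 of wild-type bone marrow, array 1 of HDC-KO bone marrow or array 1 of wild-type tumor. For Klf4 the difference of effects was not called, at -0.34 ± 0.15 and a 95% interval of -0.71 to 0.02, and for Klf2 it was 0.21 ± 0.07. For Spi1 it was -0.79 ± 0.09 (adjusted p = 4.7e-04), under the 2-fold threshold, with both HDC-KO arrays above both wild-type arrays in bone marrow and below them in tumor.

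Genes linked to the factors were followed as 7 lists. The shares of all tested genes to set beside their counts are 15.5% higher and 10.5% lower between the tumor pools, 11.6% and 4.81% between the wild-type tissues, 21.1% and 15.4% between the HDC-KO tissues, and 1.8% and 2.02% between the bone marrow pools. Target genes of Spi1 and Irf8 rose in part between the tumor pools: 6 of 18 tested were higher in the pool labelled HDC-KO and none lower, with a median of 0.49. Il18, an inflammatory cytokine, rose 6.04-fold, Blnk, a signalling adaptor, 4.91-fold, and Fcgr1, the high-affinity IgG receptor, 2.75-fold. From marrow to tumor 7 of 18 rose in the wild-type pools and 8 in the HDC-KO pools, where Itgam fell. Fcgr1 was at least 12.6-fold higher in wild-type tumor than in wild-type marrow, and Ly86, part of a Toll-like receptor complex, was 5.19-fold higher. In bone marrow Blnk was the 1 called between genotypes, at least 1.29-fold higher, and it was not called without wild-type array 1, HDC-KO array 1 or HDC-KO array 2. Blnk is a B cell gene as well.

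Inflammatory genes linked to Irf5 differed by tissue more than by genotype label. All 5 tested of 8 were higher in tumor in both genotypes, with medians of 2.47 and 3.08. With pool means under log2 5 raised to 5 the medians were 1.62 and 2.63. With values raised to log2 5, 3 of the 5 were called in the wild-type pools. Il6, an inflammatory cytokine, was at least 49.6-fold higher in wild-type tumor than in wild-type marrow, and its tumor pools read 10.63 and 10.72. By genotype label in tumor, Ccl5, a T cell chemokine, was the 1 called, at 27.5-fold higher in the pool labelled HDC-KO. Between the bone marrow pools Ccl5 was called lower with both pools under log2 5, which gives no fold, and was not called without wild-type array 2.

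Alternative activation genes linked to Irf4 gave 3 higher of 7 tested in wild-type tumor and 4 in the pool labelled HDC-KO, each against its own marrow. Arg1, arginase 1, was at least 47.3-fold higher in wild-type tumor, and its 2 tumor pools read 10.56 and 10.16. Mrc1, the macrophage mannose receptor, was at least 21.0-fold higher. Between the tumor pools 2 of 7 rose, with a median of -0.06: Pparg, a lipid-sensing nuclear receptor, at least 8.27-fold, and Mrc1 3.28-fold. Pparg entered the test only through the arrays of the pool labelled HDC-KO, where it was high, so its calls are no support. With either array of that pool left out, 1 of the 2 was called. Between the bone marrow pools Mrc1 was at least 1.47-fold higher with HDC-KO, and it was not called without either array of wild-type bone marrow.

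Genes linked to Klf2 and Klf4 rose with tissue. In tumor 4 of 6 tested were higher in the wild-type pools and all 6 in the HDC-KO pools, with medians of 4.69 and 5.14. With pool means under log2 5 raised to 5 the medians were 3.53 and 4.05. Cd14, a lipopolysaccharide co-receptor, rose 43.0-fold in the wild-type pools, Nr4a1, a nuclear receptor of non-classical monocytes, 43.4-fold, and Cdkn1a, a cell cycle inhibitor, at least 30.1-fold. In HDC-KO bone marrow, where Klf4 rose, none of the 6 rose and 2 fell, Cd14 2.18-fold and Thbd, thrombomodulin, 2.09-fold, and 1 was called without wild-type array 1 or HDC-KO array 1. Itgb7, an integrin of gut homing, rose 5.46-fold between the tumor pools, the 1 called there, and 2 were called without array 2 of wild-type tumor.

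Dendritic cell genes linked to Batf3 were mostly under the level needed for a test. Of 12 listed, 10 were on the array and 4 were tested. Cadm1, an adhesion molecule, rose 7.39-fold between the tumor pools and Naaa, a lysosomal amidase, 2.58-fold. Without the filter 5 were called. Xcr1, the chemokine receptor that defines cross-presenting dendritic cells, read 2.22 and 2.33 in the pool labelled HDC-KO tumor, where Batf3 was high, and Zbtb46, a factor of classical dendritic cells, read 3.52 and 3.32. Flt3, a dendritic growth factor receptor, read 4.94 and 5.48 there and 3.36 and 3.65 in wild-type tumor.

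Cholesterol genes that LXR receptors activate were measured although Nr1h3 was not. In tumor, by genotype label, 5 of 13 rose and none fell, with a median of 0.89, or 0.86 with pool means under log2 5 raised to 5. Scd1, a fatty acid desaturase, was at least 18.5-fold higher in the pool labelled HDC-KO, Lpl, lipoprotein lipase, 4.56-fold and Abcg1, a cholesterol exporter, 2.66-fold, and 3 were called without array 2 of that pool. Scd1 and Apoc1, both among the 5, entered the test only through the arrays of that pool, so their calls are no support. From marrow to tumor 6 of 13 rose in the wild-type pools and 11 in the HDC-KO pools. Scd1 was counted in both and Apoc1 among the 11, and Scd1 was under log2 5 in both wild-type pools. Apoe, apolipoprotein E, rose 106-fold in the wild-type pools and Abca1, another exporter, at least 61.8-fold. Between the bone marrow pools Lpl was at least 6.15-fold higher with HDC-KO, while Scd2, a desaturase, fell 2.46-fold and Mylip, which targets the low-density lipoprotein receptor, 2.45-fold.

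Among 34 tested family relatives and partners, 7 rose and 2 fell between the tumor pools, a share near the 26% of all tested genes called there. Spic, a PU.1 relative of iron-recycling macrophages, rose 13.3-fold in the pool labelled HDC-KO, and Irf7, the interferon response factor, 3.59-fold. Jun, an AP-1 subunit, rose 2.97-fold. In wild-type tumor against wild-type marrow 8 rose and 2 fell, with Jun at least 22.0-fold and Junb, another AP-1 subunit, 14.8-fold higher. Runx1, a blood stem cell factor, fell by at least 4.17 in log2 units. Of the 34, 15 rose and 4 fell between the HDC-KO tissues. Between the bone marrow pools Spib, a PU.1 relative of B cells and plasmacytoid dendritic cells, was the 1 called, higher with HDC-KO but with both pools under log2 5. Spib was also among the 7 between the tumor pools, but its mean reached log2 5 only in the pool labelled HDC-KO tumor, so that call is no support. In bone marrow Spib was not called without the pool labelled HDC-KO tumor or with either array of that pool left out. There 2 genes were called without array 1 of wild-type bone marrow.

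**Figure D4:**
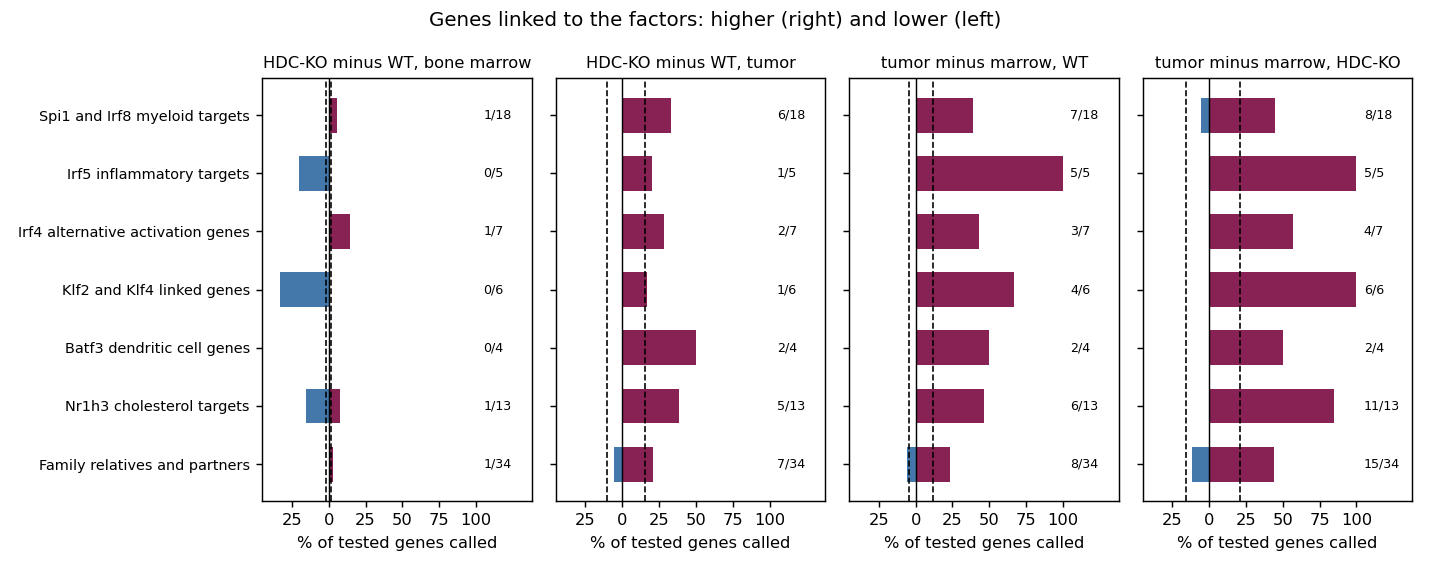
Percent of the tested genes of each of 7 linked lists called higher (right of 0) or lower (left of 0) in 4 comparisons. The numbers give genes called higher over genes tested, and the dashed lines give the percent called higher and lower among all tested genes. Bars are longest in the comparisons of tumor with bone marrow.

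Markers of other cell types moved beside these results, and their part in them was not tested. Monocyte and macrophage markers were called higher for 7 of 9 genes between the tumor pools and for all 9 from marrow to tumor in either genotype. On the log2 scale of their summed values the 9 lay at 11.42 to 11.46 on the wild-type marrow arrays, 11.78 on both HDC-KO marrow arrays, 13.92 and 13.95 in wild-type tumor, and 15.00 and 15.05 in the pool labelled HDC-KO tumor. The 12 intestinal epithelial markers summed to 7.70 to 7.99 in marrow, 12.38 to 12.41 in wild-type tumor, and 14.74 to 14.83 in the pool labelled HDC-KO tumor. Of the 12, 11 were called higher between the tumor pools and none lower. Epithelium also expresses Klf4, and its part in the Klf4 values was not tested. In bone marrow 11 of the 12 epithelial markers were under log2 5 in each pool. Cdh1 was the 1 called there, lower with HDC-KO but with both pools under log2 5.

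B and plasma cell markers summed to 12.11 to 12.15 in wild-type marrow, 10.12 to 10.15 in HDC-KO marrow, 14.73 to 14.76 in wild-type tumor, and 15.39 to 15.41 in the pool labelled HDC-KO tumor. Of the 5 tested, Cd79b, a chain of the B cell receptor, and Ms4a1, which encodes CD20, were called higher between the tumor pools, while Cd79a and Pax5 stayed under log2 5 in all 4 pools. With HDC-KO in bone marrow, Cd79b was called higher and 3 immunoglobulin-linked genes, Ighm, Igha and Jchain, lower. Of 10 neutrophil markers 2 fell between the tumor pools, Mpo and Elane, and none was called between the bone marrow pools. T and NK cell markers summed to 9.59 to 10.05 in wild-type marrow, 12.56 to 12.58 in HDC-KO marrow, 12.10 to 12.17 in wild-type tumor, and 11.69 to 11.71 in the last pool, with Cd3e, Cd4 and Cd8a under log2 5 in all 4. Cd3d and Gzma were called higher and Nkg7 lower with HDC-KO in bone marrow, both Gzma pools there being under log2 5. Between the tumor pools Gzma, Cd3g and Ncr1 were called higher and Cd3d lower, with Gzma at 7.33 and 10.83 and Cd3d at 12.03 and 10.28. Cd3g and Ncr1 had means under log2 5 in every pool but that labelled HDC-KO tumor, so their calls are no support. All 12 endothelial and fibroblast markers were under log2 5 in every pool.

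The 9 dendritic cell markers on the array summed to 6.44 to 6.76 in marrow, 11.28 to 11.32 in wild-type tumor, and 13.54 to 13.57 in the pool labelled HDC-KO tumor. The 3 tested, H2-Ab1, H2-Eb1 and Itgax, rose between the tumor pools. H2-Ab1, an MHC class II chain also carried by macrophages and B cells, was 5.12-fold higher. Zbtb46, Xcr1, Cd209a and Siglech were under log2 5 in every pool. The 8 basophil, mast cell and eosinophil markers summed to 10.58 to 10.73 in wild-type marrow, 9.39 to 9.43 in HDC-KO marrow, 7.29 to 7.53 in wild-type tumor, and 8.05 to 8.08 in the pool labelled HDC-KO tumor, where Ccr3, the eotaxin receptor, was the 1 of the 8 at or above log2 5. Of the 7 tested, 4 were called lower with HDC-KO in bone marrow (Fcer1a, Ms4a2, Cpa3 and Mcpt8). Between the tumor pools Prg2 was called lower. It was the 1 of the 8 at or above log2 5 in wild-type tumor, at 6.70. Ccr3 and Kit were called higher, Kit with both tumor pools under log2 5. Ccr3 had means under log2 5 in every pool but that labelled HDC-KO tumor, so its call is no support.

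**Figure D5:**
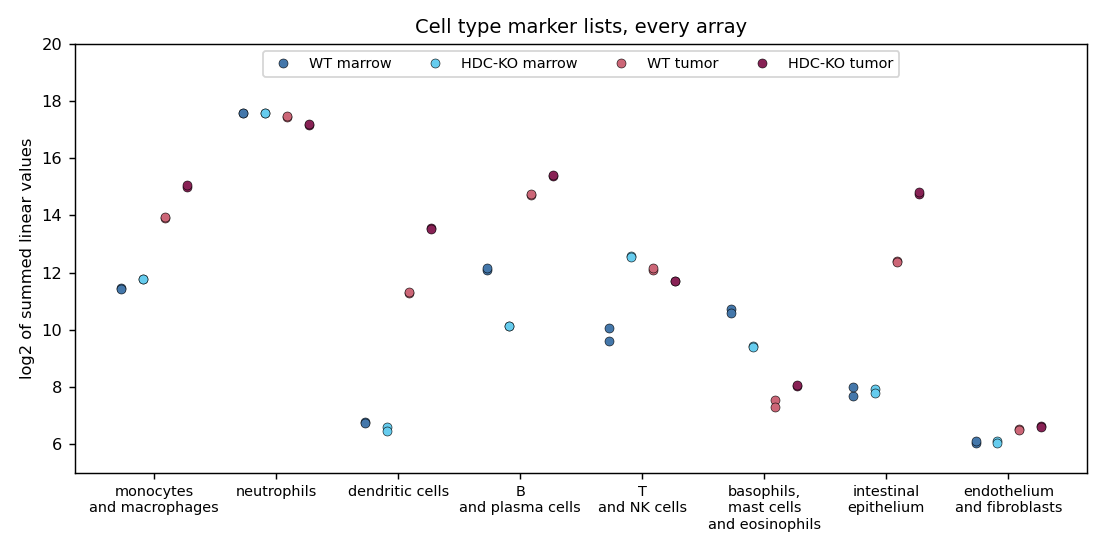
Summed level of each cell type marker list (vertical axis, log2 of the summed linear values) on every array of the 4 pools. The macrophage, dendritic, B and plasma cell, and epithelial lists are highest in the pool labelled HDC-KO tumor, and the endothelial and fibroblast list is low in all pools.

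The genes whose pattern over the 4 pools was most like that of each member were found by the distance between pool means after each gene was centred on its own mean (log2 units, 8172 other tested genes, 4 pools). The nearest to Irf8 were Tmem268 at 0.19 and Stx3 at 0.24, and the nearest to Irf5 were Gramd4 at 0.06 and Pawr at 0.07. Abcg2 at 0.16 and BC147527 at 0.24 were nearest to Irf4, Clock at 0.23 and Ahcyl2 at 0.41 to Klf4, and Nufip1 at 0.13 and Rnf149 at 0.15 to Klf2. Dock4 at 0.22 and Zscan26 at 0.23 were nearest to Maf, Cdc42ep2 at 0.08 and Stard3nl at 0.09 to Spi1, and Ccr3 at 0.11 and Myh14 at 0.14 to Batf3. For Irf4 and Batf3, 3 of the 4 means were under log2 5, so their distances rest largely on background values. Some genes near other members were under log2 5 too: Gramd4 and Pawr in every pool but that labelled HDC-KO tumor, Tmem268, Dock4 and Nufip1 in both bone marrow pools, and Clock in wild-type bone marrow. Their distances rest in part on background values. For Spi1 the nearest member was Klf2, at 1.11 and rank 4779.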

How the data were processed

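The authors' deposited values were log2 expression values of 45101 probe sets on 8 single-colour arrays, made with GCRMA, per the submitters' processing notes. GCRMA subtracts a sequence-based background, scales arrays to each other and combines probes. The log2 base was read from the values. No GCRMA version is given in the sources used here. Arrays have no read depth, so their number limits the precision.

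Arrays were grouped by title. Names came from the platform's annotation, in which 34958 have 1 symbol, 932 several and 9211 none, and all 9 members matched RefSeq by Entrez identifier. Leaving out 64 control probe sets, the 15686 that reached log2 5 on 2 or more arrays were fitted with limma 3.58.1 in R 4.3.3 (lmFit, eBayes, 4 residual and 2.2 prior degrees of freedom, 1 mean per group), with Benjamini-Hochberg adjustment over all of them, in 5 comparisons. Calls needed an adjusted p under 0.05 and a log2 difference of 1 or more in size. Gene counts use the probe set with the highest mean. Counts over members measured outside the HDC-KO tumor pool were added after the values were seen. Where a pool mean was under log2 5, the fold is a bound with the mean raised to 5. The fit was tested on simulated data. Promoters were scanned with Python 3.11.15.

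The members, lists and markers were chosen with earlier results of these data known. Named genes are all members, up to 3 called genes per list and comparison with the largest difference after means were raised, the 2 nearest in pattern, and markers. Some genes under the rule are left unnamed, and the dendritic cell genes under the test level, Ms4a1 and Cd79a were named after their values were seen. Alternatives were other filters, raised values, other scalings, 1 probe set per gene, fits to fewer pools, other variance settings, a block on the replicate number, averaged technical arrays and each array left out in turn. The results of 1 further list are not reported here.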

Additional observations from a re-analysis of the deposited data

Results flagged for a closer look

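For 6 members the estimated difference between HDC-KO and wild-type was flagged as not the same in tumor and in bone marrow. The difference of effects (tumor minus bone marrow, log2) was called by limma for Irf5 at 2.59, Maf at 1.19 and Irf8 at 1.04. Of all tested genes 16.8% were called higher and 11.7% lower, 28.5% in all. Batf3 at 4.37 and Irf4 at 1.96 as deposited were called too. They entered the test only through the pool labelled HDC-KO tumor, so their calls are no support. Their means in every other pool were under log2 5. With means raised to 5 Batf3 and Irf4 gave 3.16 and 0.79, and the Irf4 call was lost. Irf5 and Maf had overlapping arrays between the bone marrow pools. Spi1, at -0.79, was under the 2-fold threshold, but its HDC-KO arrays lay above the wild-type arrays in bone marrow and below them in tumor. All 6 values use the tumor pool labelled HDC-KO, whose Hdc level went against that label.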

How the results depend on the processing

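For member probe sets called, 1 probe set per gene gave 1, 6, 5, 7 and 5 in place of 2, 11, 9, 12 and 9 (in this order: genotype in marrow, genotype in tumor, tissue among wild-type pools, tissue among HDC-KO pools, difference of effects), since fewer were tested. For all probe sets called it gave 312, 2122, 1338, 2986 and 2330 in place of 649, 3774, 2617, 5707 and 4302, and a filter at log2 7 gave 1727 in place of 2617. Leaving out each array in turn gave 2 to 3, 7 to 11, 8 to 9, 8 to 12 and 5 to 9 member calls, and 536 to 645, 3123 to 3806, 2349 to 2606, 4972 to 5689 and 3651 to 4289 calls in all. Of 739 member differences under an alternative, 726 kept direction and side of the threshold. The 3 that turned direction were small in bone marrow: Irf5 at 0.0056 after quantile normalization, Maf at -0.011 without HDC-KO array 1 (left-out range -0.011 to 0.35) and Batf3 at -0.098 without HDC-KO array 2 (range -0.098 to 0.20). Irf8 in the difference of effects was 0.996 with arrays centred on the median, and the cause was not tested. Batf3 between wild-type tissues reached 1.06 without wild-type tumor array 2. Its means were under log2 5 in both wild-type pools and in HDC-KO bone marrow. This value and the -0.098 above are thus differences of background values. The replicate number as a block gave the same 2, 11, 9, 12 and 9 member calls. Deviations of same-numbered arrays correlated at -0.02 to 0.07, highest between the tumor pools. With 1 deviation per pool these values cannot tell whether same-numbered arrays shared a batch. Fits without the HDC-KO tumor pool and without probe sets ending in _s_at, _x_at or _a_at were chosen after seeing the data, and the first gave 8 member calls in place of 9 between wild-type tissues, as a Maf probe set was no longer tested.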
